A study of Mus musculus with 22 samples.

Results

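The genes and pathways described here are those whose difference between ZT16 and ZT4 in sorted mouse muscle stem cells changed between uninjured muscle and day 3 after injury. The measure was an interaction: the ZT16 minus ZT4 difference at day 3, minus the same difference in uninjured muscle, both as log2 values of gene expression. It used 14 of the 22 libraries of the series, with 3 libraries of uninjured muscle at ZT4, 3 at ZT16, and 4 at each time at day 3, and 15084 of 43430 genes had enough counts to be tested. A gene's time difference is called lost, kept, reversed or new at day 3 by rules given below, and these classes are descriptions, since they were made from the tested differences themselves.

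All mice carried Pax7-zsgreen, a reporter that makes ZsGreen in cells that express Pax7, a transcription factor of muscle stem cells. Hindlimb muscles were either left uninjured (labelled QSC) or injured with cardiotoxin, a snake venom toxin that kills muscle fibers and starts regeneration (labelled ASC), and stem cells were taken 3 days after the injury. ZT, or zeitgeber time, counts hours from lights on: under a usual cycle the lights are on at ZT4 and off at ZT16. For injured muscle the labels name the ZT of the injury, and at what hour cells were collected at day 3 is not stated in them. Uninjured muscle had no injury, so its ZT cannot be that of an injury. The time label may therefore mark different events in uninjured muscle and at day 3. In the interaction, such a difference in the label and a change in the cells cannot be told apart. The mice were perfused with ice-cold PBS, mild fixative and glycine before the ZsGreen-positive cells were sorted. An FFPE extraction kit gave the RNA, and the SMART-seq v4 kit the cDNA libraries. The labels do not say whether the libraries of a group came from separate mice, so p-values measure the spread between these libraries, which may be technical. In bulk libraries of sorted cells, fewer cells that express a gene and less of its RNA per cell cannot be told apart.

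The circadian clock of mammalian cells is a feedback loop. BMAL1 (gene Arntl) and CLOCK bind E-boxes and drive the Period and Cryptochrome genes, whose proteins repress BMAL1 and CLOCK, while REV-ERB proteins (Nr1d1, Nr1d2) repress Arntl and ROR proteins activate it through shared response elements. Muscle stem cells rest in a quiescent state in uninjured muscle and are activated and divide after injury. Cholesterol synthesis is driven by SREBP-2 (Srebf2), and the immediate early genes are transcription factors and feedback genes that rise within a short time of a stimulus.

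In uninjured muscle 2663 genes (17.7% of those tested) differed between ZT16 and ZT4, 1287 of them higher and 1376 lower at ZT16, by the quasi-likelihood test of edgeR with adjusted p under 0.05. No gene passed that threshold between ZT16 and ZT4 at day 3, where the smallest adjusted p was 0.143 and 1003 genes had an unadjusted p under 0.05. On the same data DESeq2 called 4 genes at day 3, edgeR without a filter on low counts called 127 and limma called 0. The interaction itself passed for 1927 genes (12.8%), 1026 of them positive (6.8%) and 901 negative (5.97%). A positive value means that ZT16 relative to ZT4 stood higher at day 3 than in uninjured muscle. The median standard error of a time difference was 0.219 at day 3 and 0.247 in uninjured muscle on the log2 scale. The fit gave each gene a spread shared by all groups. These errors therefore largely follow the number of libraries and cannot compare the precision of both states. The p-values rest on the same shared spread. In limma voom with group weights, which lets each group have its own spread, 1152 uninjured differences and 1058 interactions passed. Of the 2663 genes that differed with time in uninjured muscle, 1716 (64.4%) also passed the interaction.

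A time difference was called lost when the interaction and the uninjured difference passed the threshold while the day 3 difference had an unadjusted p of at least 0.05 and was smaller than 50% of the uninjured one. By this rule 1403 genes (9.3% of those tested and 52.7% of the uninjured calls) lost their time difference, 674 of them higher and 729 lower at ZT16 in uninjured muscle. Their median absolute log2 difference was 0.80 in uninjured muscle and 0.14 at day 3. For 1227 of them the 95% interval of the day 3 difference lay within 2-fold, and for 959 within 1.5-fold. Another 281 genes (1.86%) were reversed, with a day 3 difference of the other sign at unadjusted p under 0.05, and 4 were reduced. New differences, larger at day 3 than in uninjured muscle and not called there, were found for 68 genes (0.451%). Kept differences, of the same sign at both stages with no interaction call, were found for 32 genes (0.212%). For 915 uninjured calls none of these rules applied, and they stay undecided. The genes nearest to the threshold were Mov10 and Chordc1 inside it, with interaction adjusted p of 0.0497 and 0.0499, and Calm2 and Slf1 outside it, at 0.0501 and 0.0501.

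**Figure D1:**
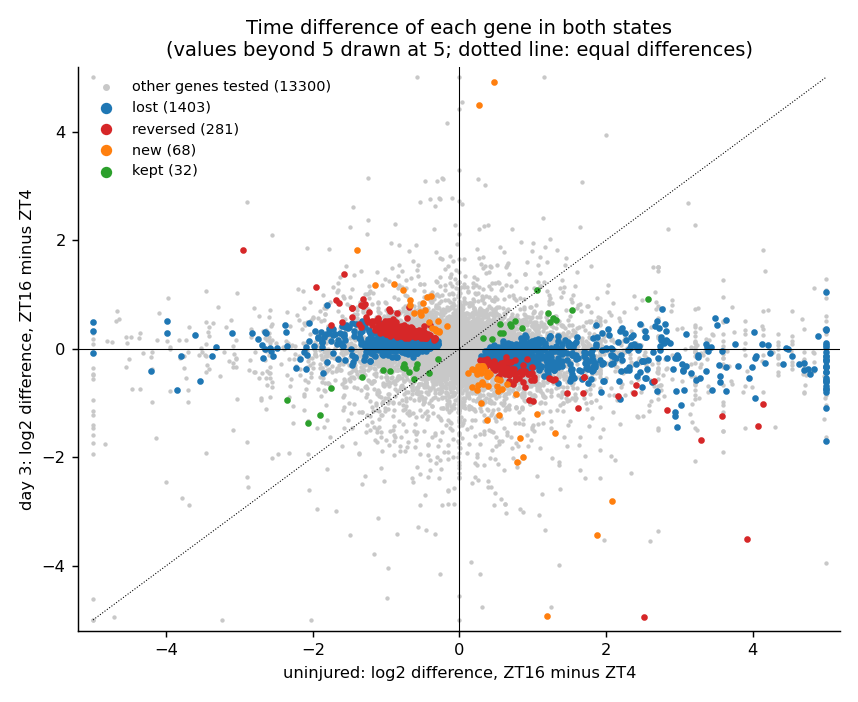
Each point is 1 of the 15084 genes tested, with the log2 difference ZT16 minus ZT4 in uninjured muscle on the x axis and at day 3 on the y axis. The 1403 lost genes (blue) lie along the horizontal axis, the 281 reversed genes (red) in the upper left and lower right, the 32 kept genes (green) in the other quadrants, and the 68 new genes (orange) have a larger difference at day 3 than in uninjured muscle.

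Libraries held between 5965957 and 9751536 expected counts. Replicates were more alike at day 3, where log2 CPM correlated across genes at 0.972 to 0.988, than in uninjured muscle, at 0.931 to 0.967. Uninjured ZT16 libraries 1 and 3 stood apart from library 2 by the immediate early genes described below. Without both, which leaves 1 uninjured ZT16 library and assumes that it varies like the others, 473 interactions passed, 419 of them among the 1927. The lost genes then numbered 249, the reversed 58, the new 5 and the kept 19. Leaving out only uninjured ZT16 library 1 gave 1309 interaction calls, and leaving out only library 2 gave 2369.

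Transcript length moved with the groups. The mean transcript length of the counts was 2878.9, 2834.1 and 2732.4 bases in the uninjured ZT4 libraries and 3038.1, 2933.8 and 3007.6 bases at ZT16. At day 3 it was 2718.5, 2688.6, 2667.6 and 2723.0 bases at ZT4 and 2652.9, 2499.3, 2598.5 and 2609.9 bases at ZT16. The order of the times was opposite in the 2 states, with no overlap between ZT4 and ZT16 in either. Among the 3017 genes with the shortest transcripts (66 to 1418 bases) the median interaction was 0.408 and 588 passed as positive against 43 as negative. Among the 3017 longest (4275 to 84395 bases) it was -0.263, with 48 positive and 315 negative. With offsets that remove each library's trend with length, an alternative added after the data were seen, 1193 interactions passed, 998 of them among the 1927. The medians of the shortest and longest genes were then -0.048 and -0.019. The part of length in the interactions was not tested.

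**Figure D2:**
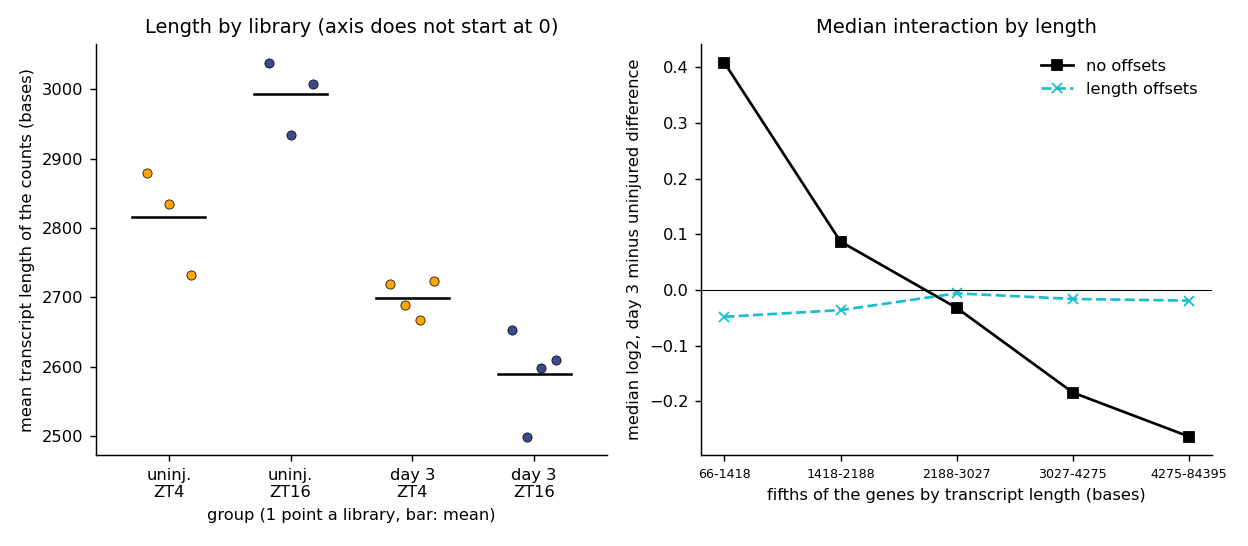
Left, the mean transcript length of the counts in bases (y axis) for each of the 14 libraries by group, with a bar at the mean. Right, the median interaction (log2, y axis) over the genes in 5 classes of length (x axis), which ran from 0.408 for the shortest to -0.263 for the longest genes without offsets and lay between -0.048 and -0.006 with length offsets.

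Promoters of clock genes that lost their time difference are shown because the E-box is the element through which the loop closes. RefSeq on GRCm38.p6 gave 33 promoters, from 250 bases before to 50 bases after an annotated start, for 24 of the 31 clock genes. The E-box CACGTG (the same letters on both strands) lay in 6 of the 33 promoters, against 7.15% of 32851 mouse promoters of that length. These were promoters of Tef, Cry1, Bhlhe41, Per1 and Ciart, of which Per1 and Ciart were not among the lost genes. The other lost clock genes had no E-box match or no promoter in the set. The REV-ERB and ROR core TAGGTCA, searched on both strands, lay in 2 of the 33 promoters, those of Arntl and Nfil3, against 2.61% of all promoters. The E-box is in capitals in the stretches of Tef (chr15:81811220-81811339, plus strand), Cry1 (chr10:85185055-85185170, minus strand) and Bhlhe41 (chr6:145865510-145865629, minus strand), where it begins 138, 60 and 153 bases before the start. The core is in capitals in the stretch of Arntl (chr7:113207531-113207557, plus strand), where it begins at base 31 of the transcript.
Tef: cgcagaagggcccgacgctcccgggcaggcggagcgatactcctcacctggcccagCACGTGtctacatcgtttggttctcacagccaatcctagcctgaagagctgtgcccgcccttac
Cry1: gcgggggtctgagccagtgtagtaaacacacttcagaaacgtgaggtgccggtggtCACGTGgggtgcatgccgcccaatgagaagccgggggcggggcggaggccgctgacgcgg
Bhlhe41: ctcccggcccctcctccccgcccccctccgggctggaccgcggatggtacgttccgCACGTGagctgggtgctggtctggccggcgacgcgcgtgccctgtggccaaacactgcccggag
Arntl: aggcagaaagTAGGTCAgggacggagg
A match describes these letters only.

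Of the 30 clock genes tested, 12 lost their time difference, 2 were reversed, 1 was kept and 1 more passed the interaction outside these classes. The interaction was called positive for 1 gene and negative for 14, beside 12.8% over all genes. The median of the clock list was 0.79 in uninjured muscle and -0.17 at day 3, beside 0.00 in both over all genes tested. Arntl, the gene of BMAL1, stood at 49.6, 24.6 and 32 CPM (counts scaled to the library's normalized total) in the uninjured ZT4 libraries and at 6.59, 5.28 and 13.8 CPM at ZT16. Day 3 levels were 11, 8.34, 10.7 and 16.3 CPM at ZT4 and 15.2, 8.27, 14.1 and 13.7 CPM at ZT16. The groups did not overlap in uninjured muscle and overlapped at day 3. Its log2 difference was -2.05 ± 0.34 (SE, as after every log2 value) in uninjured muscle and 0.14 ± 0.29 at day 3, and the interaction was 2.19 ± 0.44 (edgeR adjusted p = 0.0019). Clock, which encodes the partner of BMAL1, did not pass in either state, at 0.10 ± 0.24 and -0.27 ± 0.21. Npas2, a CLOCK relative, was lower at ZT16 in uninjured muscle, with a difference of -1.85 ± 0.56, but stood at or under 2.26 CPM in all day 3 libraries, and its interaction of 2.60 ± 0.89 did not pass (adjusted p = 0.0575).

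Of the 8 genes of Period, Cryptochrome, DEC and CIART proteins, repressors of the loop, 6 were higher at ZT16 in uninjured muscle and lost that difference. In uninjured muscle the ZT4 libraries had 9.37, 17.4 and 57 CPM of Per2 and the ZT16 libraries 209.8, 155 and 241 CPM. After injury the levels were 7.38, 10.2, 10.1 and 10.4 CPM at ZT4 and 16.1, 9.21, 8.8 and 6.34 CPM at ZT16, so that the day 3 ZT4 values lay within the range of the ZT16 values. The interaction of Per2 was -2.76 ± 0.61 (edgeR adjusted p = 0.00622). Per3 stood at 47.5, 77.5 and 104 CPM at uninjured ZT4 and 173, 241 and 167 CPM at ZT16, and all 8 day 3 libraries lay between 2.77 and 8.0 CPM. Cry1 was at 19.99, 7.67 and 29.5 CPM at uninjured ZT4 and 73.5, 54.1 and 72.8 CPM at ZT16. Its day 3 values of 34.4, 41, 34 and 44.7 CPM at ZT4 and 49.9, 43.5, 42.9 and 39.4 CPM at ZT16 overlapped and lay between the uninjured ZT4 and ZT16 ranges. Interactions of -1.68 ± 0.42 for Per3, -1.64 ± 0.35 for Cry1, -1.32 ± 0.39 for Cry2, -1.55 ± 0.32 for Bhlhe41 and -2.78 ± 0.85 for Bhlhe40 passed, with edgeR adjusted p of 0.00954, 0.00372, 0.03, 0.00237 and 0.0405. The call of Bhlhe40 was lost with length offsets (adjusted p = 0.0665), with the 14 libraries only (adjusted p = 0.0771) and in limma with group weights (adjusted p = 0.123). Left-out single libraries gave Bhlhe40 an edgeR adjusted p between 0.0105 and 0.118. Ciart, another repressor, passed the interaction at -1.64 ± 0.54 without a called uninjured difference, and Per1 did not pass, at -1.66 ± 0.72.

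The 2 REV-ERB genes went different ways. Nr1d1 was the one clock gene that kept its difference: it was at 339.8, 402 and 324 CPM at ZT4 and 165, 234 and 154 CPM at ZT16 in uninjured muscle. The day 3 libraries had 23.5, 27.5, 33.7 and 23.8 CPM at ZT4 and 28, 20.1, 19.2 and 14 CPM at ZT16, with overlap of ranges, a log2 difference of -0.40 ± 0.17 (unadjusted p = 0.0297) and an interaction of 0.54 ± 0.25 that did not pass (adjusted p = 0.162). Nr1d2 was reversed. It was at 99.8, 153 and 127 CPM at ZT4 and 278, 211 and 204 CPM at ZT16 in uninjured muscle, higher at ZT16 with no overlap. Day 3 levels were 55.7, 50.9, 42.8 and 46.2 CPM at ZT4 and 37.1, 33.5, 29.4 and 27 CPM at ZT16, lower at ZT16 with no overlap, and the interaction was -1.49 ± 0.21 (edgeR adjusted p = 0.000133).

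Among the output genes, Tef, a transcription factor of the D-box, was at 146, 213 and 252 CPM at uninjured ZT4 and 433, 448 and 444 CPM at ZT16. Its day 3 values were 47.2, 46.6, 41.6 and 48.9 CPM at ZT4 and 41.2, 37.2, 44.8 and 39.99 CPM at ZT16, which overlapped. The interaction of Tef was -1.3 ± 0.20 (edgeR adjusted p = 0.00026). Wee1, a kinase that holds back entry into mitosis and a known clock output, was reversed. It was at 7.9, 11 and 15.1 CPM at ZT4 and 91.4, 56.8 and 64.6 CPM at ZT16 in uninjured muscle, and at 29.97, 27.4, 42 and 28.6 CPM and 27.9, 19.97, 17.3 and 19.3 CPM at day 3. The uninjured groups stood apart, while the day 3 groups overlapped in 1 library. Its interaction of -3.25 ± 0.36 (edgeR adjusted p = 1.08e-05) had the smallest p of the reversed genes. Hlf, Nfil3 and Usp2 also lost their difference, with interactions of -2.52 ± 0.78, -3.29 ± 0.77 and -3.11 ± 0.68, as did Csnk1d, a kinase of PER proteins, at -1.06 ± 0.19. Hlf stood at or under 1.21 CPM in all day 3 libraries, so that its day 3 interval was wide, from -1.05 to 1.5 on the log2 scale. Dbp did not pass in either state, at 0.46 ± 0.21 and 0.35 ± 0.27, nor did Noct, Rora, Rorb, Arntl2, Csnk1e, Btrc, Fbxw11 and Gsk3b. Fbxl21 had too few counts to be tested.

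Levels also differed between the states for some clock genes. For Per3, Tef, Nr1d1 and Nr1d2 every day 3 library lay below every uninjured library, while Arntl, Per2, Cry1 and Wee1 overlapped. The share of all genes that lay apart in this way was not computed. Without uninjured ZT16 libraries 1 and 3, 6 clock genes still passed the interaction: Arntl at 2.90, Bhlhe41 at -1.76, Per3 at -1.97, Nr1d2 at -1.33, Tef at -1.29 and Wee1 at -2.91. The interactions of Bhlhe40 and Nfil3 were then -0.95 and -1.24 and did not pass. With length offsets 12 clock genes passed, while Cry2 and Hlf did not (adjusted p = 0.106 and 0.0763). In cells taken on day 1 after injury, which entered no class, the time difference of Arntl was 0.14 ± 0.30, that of Per2 0.76 ± 0.38, that of Tef 0.07 ± 0.13 and that of Nr1d1 -0.49 ± 0.16.

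**Figure D3:**
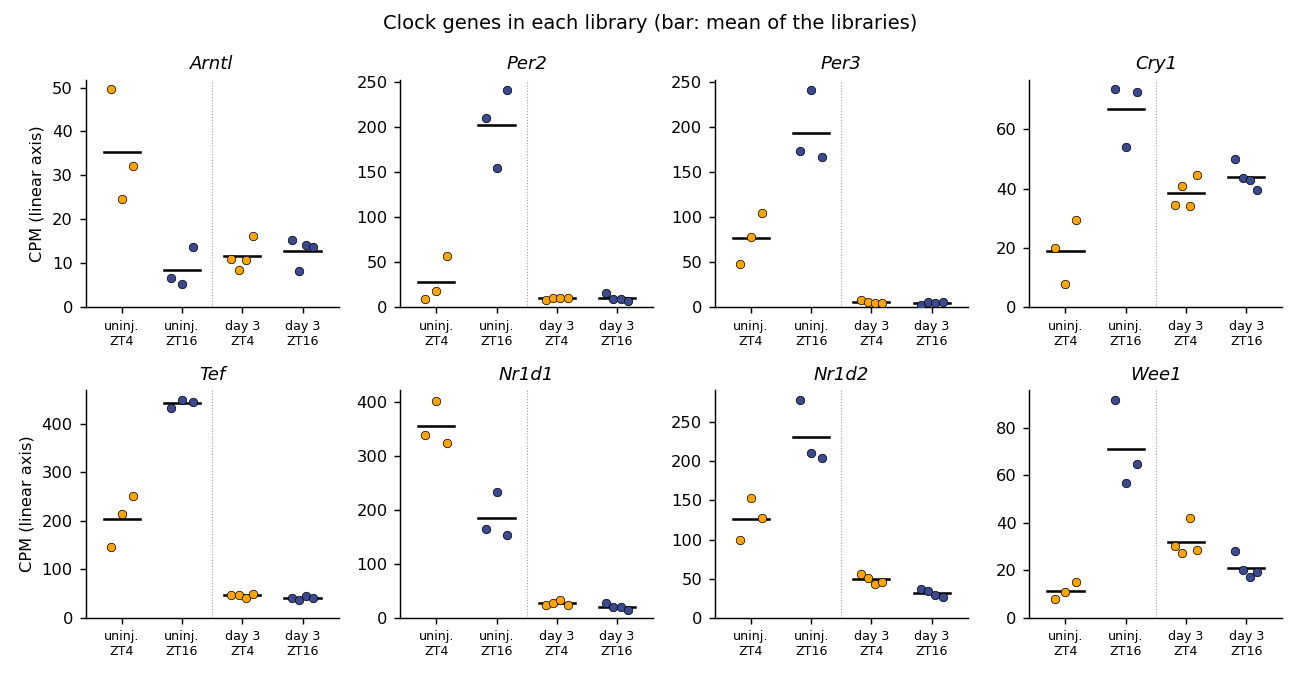
CPM (y axis, linear) of 8 clock genes in each library, by group on the x axis, with a bar at the mean of the group. Arntl, Per2, Per3, Cry1 and Tef differed between ZT4 and ZT16 in uninjured muscle with no overlap and overlapped at day 3. Nr1d1 stayed lower at ZT16, and Nr1d2 and Wee1 were higher at ZT16 in uninjured muscle and lower at day 3.

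Genes of sterol synthesis and uptake lost a difference of the other direction. Of 27 genes 17 were lost and 1 was reversed, all 18 lower at ZT16 in uninjured muscle and with a positive interaction. Over all genes tested, 9.3% were lost and 6.8% passed with a positive interaction. The median of the list was -1.22 in uninjured muscle and -0.01 at day 3. Srebf2, the gene of the driver SREBP-2, was at 293, 284 and 319 CPM at ZT4 and 120.5, 114 and 144 CPM at ZT16 in uninjured muscle. After injury the levels were 280, 299, 320.2 and 303 CPM at ZT4 and 298, 285, 314 and 335 CPM at ZT16. Both day 3 groups overlapped and lay near the uninjured ZT4 level. The day 3 difference was 0.04 ± 0.10, with a 95% interval from -0.17 to 0.25, and the interaction was 1.28 ± 0.16 (edgeR adjusted p = 2.49e-05).

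Fdps, which makes farnesyl diphosphate, was at 190.4, 80.2 and 172 CPM at uninjured ZT4 and 28.8, 22.9 and 26.8 CPM at ZT16. Its day 3 values were 152, 159, 132 and 128 CPM at ZT4 and 128, 139, 157 and 152 CPM at ZT16, with overlap, and the interaction was 2.51 ± 0.30 (edgeR adjusted p = 3.43e-05). Sqle and Msmo1, oxygenases of the later steps, had interactions of 2.40 ± 0.38 and 2.66 ± 0.39, and Lss, the cyclase that forms lanosterol, of 2.13 ± 0.28. Mvk, mevalonate kinase, was reversed: it was at 35.9, 21.5 and 39.1 CPM at uninjured ZT4 and 8.6, 9.0 and 11.1 CPM at ZT16. The day 3 libraries had 12.2, 12.4, 11.1 and 12.1 CPM at ZT4 and 12.7, 18, 17.3 and 17.4 CPM at ZT16, higher at ZT16 with no overlap, by 0.45 ± 0.21 (unadjusted p = 0.04).

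Insig1, which retains SREBP in the endoplasmic reticulum and is itself an SREBP target, was lost with an interaction of 1.24 ± 0.29. Tmem97, a sterol-regulated membrane protein outside the list, was lost at 1.72 ± 0.20. Other genes of the pathway did not pass. Hmgcs1, which makes HMG-CoA, had time differences of -0.98 ± 0.35 and -0.32 ± 0.29 and an interaction of 0.66 ± 0.45 (adjusted p = 0.376). The 19 genes of the list with a RefSeq promoter had 27 promoters. Only 1 of these, of Hmgcs1, held the sterol regulatory element TCACNCCAC on either strand, against 1.24% of all promoters. Srebf1, Scap, Insig2, Pmvk and Tm7sf2 did not pass either. Without uninjured ZT16 libraries 1 and 3, 12 of the 27 passed, with a median of 1.32 against 1.24, and with length offsets 15 passed.

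**Figure D4:**
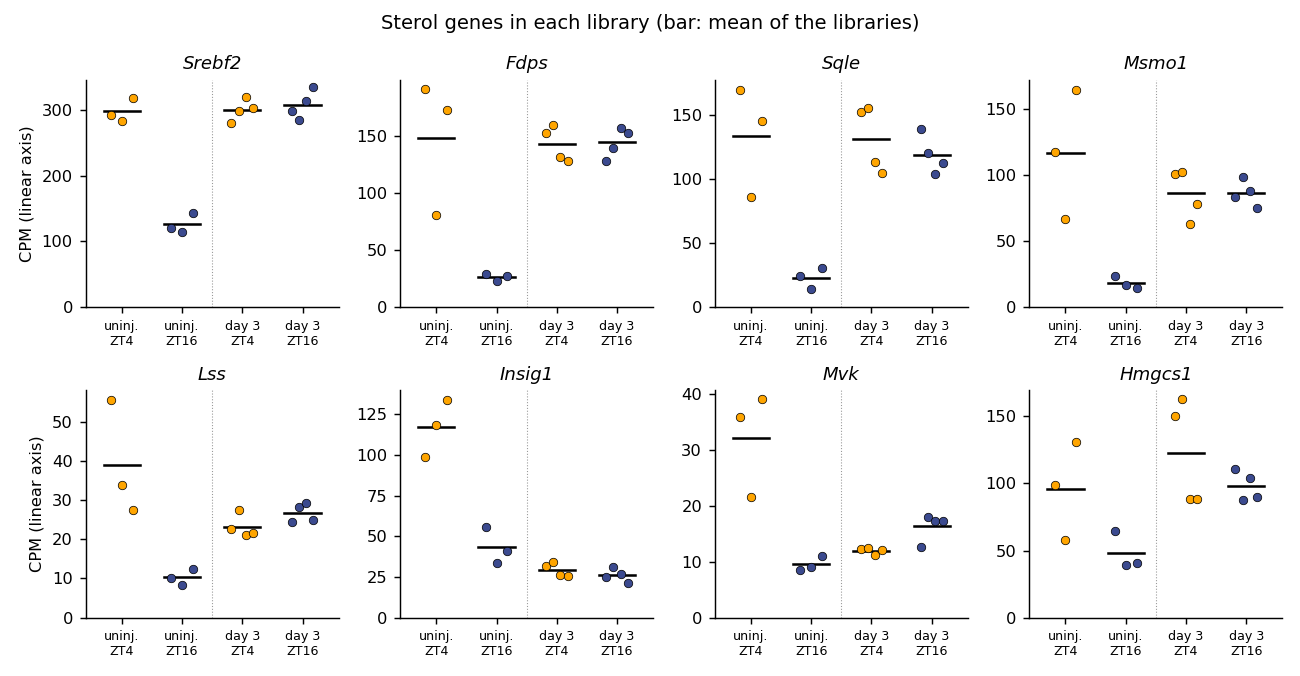
CPM (y axis, linear) of 8 sterol genes in each library, by group on the x axis, with a bar at the mean of the group. In Srebf2, Fdps, Sqle, Msmo1, Lss and Insig1 the uninjured ZT16 libraries lie below the ZT4 libraries and the day 3 groups overlap. Mvk stands apart in opposite orders in the 2 states, and Hmgcs1 overlaps in both.

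Immediate early genes made up 6 of the 10 lowest interactions, and their calls rested on 2 libraries. Of 31 genes, 25 lost their time difference, beside 9.3% over all genes, and the median went from 3.39 in uninjured muscle to -0.21 at day 3. The mean log2 CPM of the list was 5.09, 5.57 and 4.78 in the uninjured ZT4 libraries and 9.22, 5.61 and 8.88 at ZT16, so that library 2 lay near the ZT4 level. At day 3 it was 6.25, 6.31, 6.22 and 6.41 at ZT4 and 6.42, 6.33, 5.90 and 5.25 at ZT16. Fos, a subunit of AP-1, was at 319.8, 539.9 and 196 CPM at uninjured ZT4 and 19970, 469.6 and 16120 CPM at ZT16. Day 3 values of Fos were 665, 732, 606 and 839 CPM at ZT4 and 910, 749, 533 and 272 CPM at ZT16. In both states its ranges overlapped, and the interaction was -5.32 ± 1.21 (edgeR adjusted p = 0.00797) with all libraries and -0.60 (adjusted p = 0.855) without libraries 1 and 3. None of the 31 genes passed in edgeR without these 2 libraries, where 2 had an unadjusted p under 0.05, when the median interaction was -0.60 against -4.19, and 2 passed in a limma fit that lets each group have its own spread. The 6 lowest with all libraries were Atf3 at -7.91 ± 1.79, Fosb at -7.46 ± 1.55, Egr2 at -6.71 ± 1.3, Csrnp1 at -6.14 ± 1.22, Nr4a1 at -6.09 ± 1.45 and Socs3, an inhibitor of cytokine signalling, at -5.72 ± 1.10.

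Genes of inflammation moved with the same 2 libraries. As background, 5.97% of all genes tested passed with a negative interaction and 9.3% were lost. Of 24 chemokine and cytokine genes 8 passed with a negative interaction, and 1 passed without libraries 1 and 3. That gene was Cxcl12, a chemokine of stromal cells, which was at 35.3, 45 and 64.7 CPM at uninjured ZT4 and 68.3, 98.5 and 74.4 CPM at ZT16. Day 3 levels were 60.9, 69.7, 71.4 and 65.6 CPM at ZT4 and 50.9, 53.4, 50.9 and 52.1 CPM at ZT16, lower at ZT16 with no overlap, and the gene was reversed with an interaction of -1.11 ± 0.23 (edgeR adjusted p = 0.00287). Ccl2, the monocyte chemokine, had an interaction of -2.89 ± 0.90 (adjusted p = 0.0436) with all libraries and -1.22 (adjusted p = 0.701) without them. Has1, a hyaluronan synthase, was at 0 CPM in the uninjured ZT4 libraries. Its ZT16 libraries had 21.8, 0.571 and 14.2 CPM, at least 94.1-fold higher if the ZT4 group as a whole held 3 counts. Has1 ran from 1.81 to 61.1 CPM over the day 3 libraries. Of 19 NF-kB subunits, inhibitors and targets 6 were lost, among them Nfkbia, Nfkbiz and Tnfaip3, and none passed in edgeR without libraries 1 and 3, where 1 had an unadjusted p under 0.05.

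Glucocorticoid response genes had interactions of the same direction. All 14 were negative, and 8 passed and were lost, beside 9.3% lost over all genes. The median was -1.86 with all libraries and -1.52 without libraries 1 and 3, when 2 passed, Fkbp5 and Arrdc2. Fkbp5, a chaperone partner of the glucocorticoid receptor and a standard marker of its activity, was at 33.2, 30.8 and 73.9 CPM at uninjured ZT4 and 192, 339 and 128 CPM at ZT16. Its day 3 values were 52.3, 60.8, 54.8 and 57.6 CPM at ZT4 and 63.8, 71, 49.9 and 68.4 CPM at ZT16. The interaction was -2.10 ± 0.42 (edgeR adjusted p = 0.00325) with all libraries and -2.70 (adjusted p = 0.00305) without the 2. Arrdc2 was at 24.2, 30.8 and 54.6 CPM and 149, 389 and 217 CPM in uninjured muscle and at 5.18, 3.62, 2.97 and 2.1 CPM and 2.46, 4.96, 4.48 and 3.02 CPM at day 3, with an interaction of -2.68 ± 0.61 (edgeR adjusted p = 0.00684). Nr3c1, the gene of the receptor, did not pass, at -0.51 ± 0.23.

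All 76 cytosolic ribosomal protein genes were lower at ZT16 in uninjured muscle and all were higher at ZT16 at day 3, where none passed the adjusted threshold. The interaction was positive and called for 75, of which 26 were lost and 49 reversed, beside 6.8% called positive over all genes. Rpl35, at 0.43 ± 0.19 and named here after its values were seen, was the exception. The median was -0.91 in uninjured muscle and 0.31 at day 3. The mean log2 CPM of the list was 8.41, 9.03 and 9.06 in the uninjured ZT4 libraries and 7.95, 8.15 and 7.87 at ZT16. At day 3 it was 8.60, 8.65, 8.64 and 8.54 at ZT4 and 8.73, 9.27, 8.91 and 8.73 at ZT16. Library 2 was the highest at day 3 ZT16, and without it the reversed genes of the whole table fell in number from 281 to 111. Rpl19, a protein of the large subunit, was at 415, 584 and 552 CPM at uninjured ZT4 and 279, 309.9 and 282 CPM at ZT16. After injury the levels were 499, 527, 548 and 529 CPM at ZT4 and 566, 744, 616 and 597 CPM at ZT16, and in both states the groups did not overlap. Its interaction was 1.09 ± 0.16 (edgeR adjusted p = 0.000165). Ribosomal protein transcripts are short, and with length offsets 57 of the 76 passed, with a median interaction of 0.59 against 1.23. For Rpl19 the value was 0.49 (adjusted p = 0.0085). Without uninjured ZT16 libraries 1 and 3, 53 passed with a median of 1.08. Of 21 ribosome biogenesis factors, 2 (Bop1 and Nhp2) passed, beside 12.8% over all genes, and the median was 0.11.

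The nuclear genes of the respiratory chain had the same pattern before the offsets. Of 40 genes, 31 had a positive called interaction, 23 lost and 8 reversed, beside 6.8% called positive over all genes. The median was -0.52 in uninjured muscle and 0.16 at day 3. With length offsets 3 of them passed (Atp5b, Atp5g1 and Ndufa13), and the median interaction was 0.06 against 0.68. Without uninjured ZT16 libraries 1 and 3 the median interaction was 0.53. Ndufa11, a complex I subunit outside the list, was at 81.8, 106 and 95 CPM at uninjured ZT4 and 46.4, 55.6 and 46.7 CPM at ZT16. Its day 3 values were 120.1, 120.4, 125 and 119.5 CPM at ZT4 and 138, 166, 151 and 147 CPM at ZT16, apart in both states and in opposite order. Its interaction was 1.24 ± 0.15 without and 1.28 with length offsets (edgeR adjusted p = 2.05e-05 and 2.37e-05). Of 15 glycolysis genes, 3 passed with a positive and 2 with a negative interaction, and the median interaction was 0.00. Over all genes tested, 6.8% passed as positive and 5.97% as negative. Gapdh was reversed at 0.91 ± 0.16 and Eno1 lost at 0.73 ± 0.12, both also called with length offsets. Hk2, which was higher at ZT16 in uninjured muscle, was reversed at -2.22 ± 0.38.

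**Figure D5:**
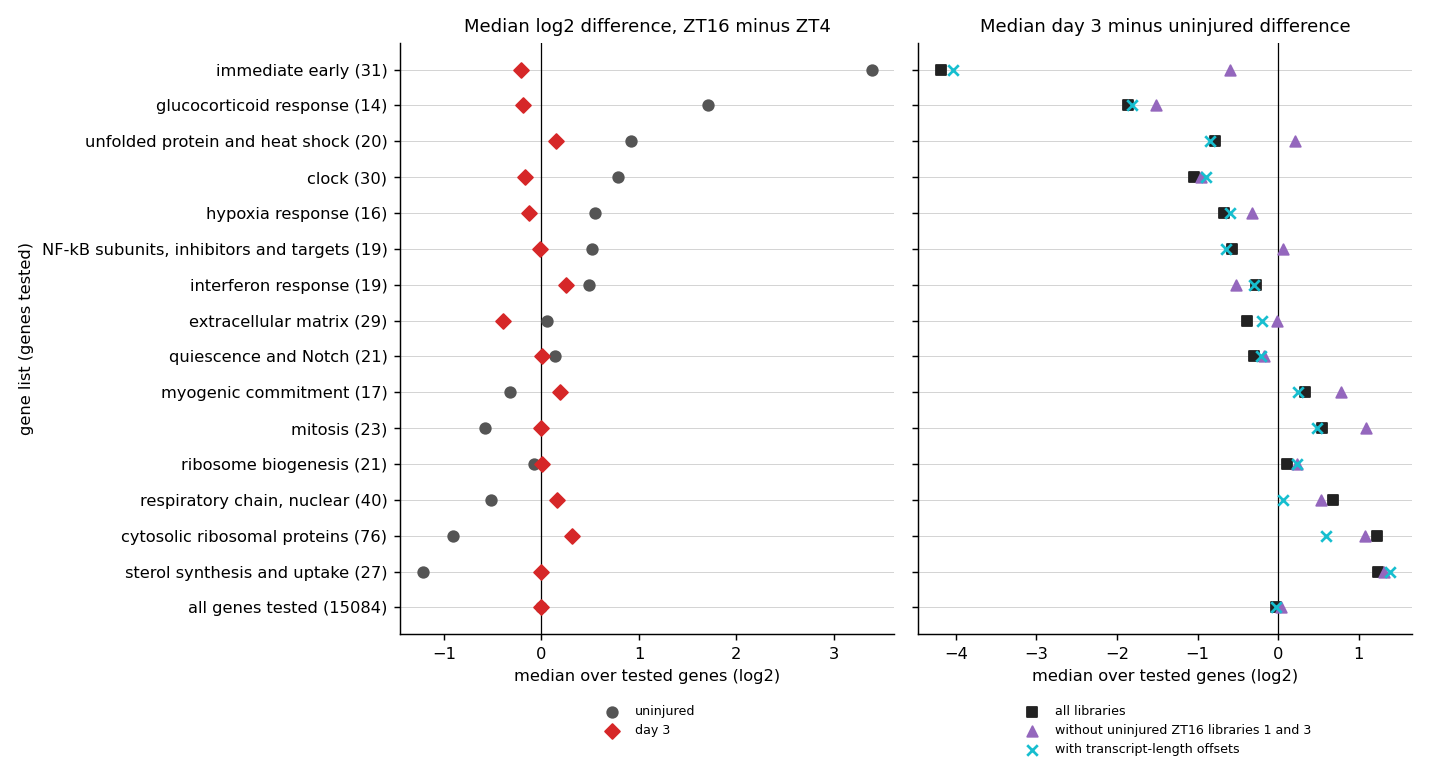
Medians over the tested genes of 15 gene lists and over all genes tested. Left, the log2 difference ZT16 minus ZT4 in uninjured muscle (grey) and at day 3 (red), where the day 3 medians lie between -0.39 and 0.31 and the uninjured ones between -1.22 and 3.39. Right, the median interaction with all libraries (black), without uninjured ZT16 libraries 1 and 3 (purple) and with length offsets (cyan). The immediate early list moves from -4.19 to -0.60 without the 2 libraries, and the respiratory chain list from 0.68 to 0.06 with length offsets.

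Of 20 unfolded protein and heat shock genes 6 passed with a negative and 2 with a positive interaction, and 6 of the 20 were lost. Among all genes tested, 5.97% passed as negative and 6.8% as positive, and 9.3% were lost. Of 16 hypoxia genes 4 passed, all negative, of which 3 were lost and 1 was reversed. Without libraries 1 and 3, 2 genes of each list passed. The heat shock genes Dnajb1 and Hsph1 had interactions of -3.67 ± 0.73 and -1.88 ± 0.40 with all libraries, and of -0.87 and -0.50 without libraries 1 and 3, when neither passed. Ddit4, an inhibitor of mTORC1, was at 7.79, 12 and 20.7 CPM at uninjured ZT4 and 40.7, 84.7 and 106 CPM at ZT16 and between 3.41 and 9.51 CPM in all day 3 libraries. Its interaction was -2.21 ± 0.49 (edgeR adjusted p = 0.00447) and remained called without the 2 libraries at -2.31. Vegfa, the angiogenic growth factor, and Slc2a3, a glucose transporter, were lost at -1.49 ± 0.26 and -2.08 ± 0.36, with neither called without the 2 libraries, and P4ha2, a collagen prolyl hydroxylase, was reversed at -1.01 ± 0.24.

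Of the 10 muscle stem cell markers, 1 passed with a positive and 1 with a negative interaction. Pax7 stood between 290 and 349 CPM in the uninjured libraries and between 18.1 and 29.1 CPM at day 3. It had time differences of -0.07 ± 0.16 and 0.12 ± 0.15 with an interaction of 0.19 ± 0.22 (adjusted p = 0.628). The myogenic factors Myf5, Myod1 and Myog did not pass, at -0.30 ± 0.34, 0.34 ± 0.17 and 0.47 ± 0.65. Of 21 quiescence and Notch genes 1 (Sdc4) passed. Of 17 commitment genes 3 passed, all lost, of 26 DNA replication genes 4, and of 23 mitosis genes none, with a median interaction of 0.55 for the mitosis list. In limma with group weights none of the quiescence and Notch, commitment and DNA replication genes passed. With length offsets 1 commitment gene, 1 DNA replication gene and none of the quiescence and Notch genes passed. At unadjusted p under 0.05, 4 mitosis genes passed in edgeR, and DESeq2 called 2 after adjustment. The background is 12.8% over all genes. Among 29 matrix genes 8 passed, with a median interaction of -0.39. Without uninjured ZT16 libraries 1 and 3, 2 of them passed with a median of -0.01, and with length offsets 5 passed with a median of -0.20. Nid1, a basement membrane linker, was reversed: it was at 22.8, 33.4 and 28.2 CPM at uninjured ZT4 and 61, 60.4 and 78.6 CPM at ZT16. The day 3 libraries had 30.9, 40.5, 30.6 and 56.8 CPM at ZT4 and 32.5, 24.9, 30.1 and 20.8 CPM at ZT16, with overlap, and the interaction was -1.80 ± 0.30 (edgeR adjusted p = 0.000384). All 13 collagen genes had day 3 differences below 0, with a median of -0.44 and none passing by itself, and 3 of them had a called interaction. The median interaction of the collagens was -0.46 with all libraries. It was -0.01 without uninjured ZT16 libraries 1 and 3, when none passed in edgeR and 2 had an unadjusted p under 0.05, and -0.21 with length offsets, when 2 passed after adjustment.

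In signalling, the interaction passed for 3 of 19 FGF, HGF and IGF genes and 3 of 17 TGF-beta and BMP genes. It also passed for 2 of 16 genes of NAD metabolism, and all of these were negative. Median interactions of the 3 lists were -0.01, -0.32 and -0.25. Among 14 FoxO and autophagy genes, 1 passed as positive and 2 as negative, with a median of -0.32. Over all genes tested 12.8% passed, 5.97% as negative. Fgfr2, an FGF receptor, was lost. It was at 0.113, 0 and 0 CPM at uninjured ZT4 and 15.5, 3.71 and 15.5 CPM at ZT16. At day 3 it lay between 0.354 and 2.36 CPM in all libraries. The uninjured ZT4 libraries held 1 count of Fgfr2 in all, so no fold is given. Its interaction passed with all libraries (edgeR adjusted p = 0.000624) and without libraries 1 and 3 (adjusted p = 0.0406). Ltbp1, which stores latent TGF-beta in the matrix, and Tgfbr1, a TGF-beta receptor, were reversed at -1.11 ± 0.13 and -1.23 ± 0.32, Tgfbr1 without a call when libraries 1 and 3 were left out (adjusted p = 0.243). Irs2, an adaptor of insulin and IGF receptors, and Nampt, the enzyme that recycles NAD and a known clock output, were lost at -2.0 ± 0.37 and -0.79 ± 0.20. Irs2 was not called without libraries 1 and 3 (adjusted p = 0.0765). Nampt was not called without them (adjusted p = 0.0598) or with length offsets (adjusted p = 0.0745).

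Dbi, an acyl-CoA binding protein, had the smallest interaction p of all genes named. It was at 170.2, 134 and 141 CPM at uninjured ZT4 and 52.3, 48.8 and 42.6 CPM at ZT16. Day 3 levels were 189, 196, 168 and 157 CPM at ZT4 and 182, 206, 194 and 184 CPM at ZT16, with overlap. Its interaction was 1.74 ± 0.15 (edgeR adjusted p = 2.69e-07) and was 1.73 without libraries 1 and 3 and 0.99 with length offsets. Trip10, a membrane-bending adaptor, went the other way, from 109, 121 and 122 CPM at ZT4 to 354, 340.5 and 363 CPM at ZT16 in uninjured muscle, and stood at 72.3, 71.9, 95.8 and 85.7 CPM and 83.8, 76.1, 62.2 and 63.2 CPM at day 3. Klf13, a Krüppel-like factor, went the same way, with 78.2, 50.6 and 82.4 CPM and 268, 383 and 280.2 CPM in uninjured muscle and 31.4, 37.3, 41.9 and 37.9 CPM and 41.1, 31.9, 26.7 and 32 CPM at day 3. Interactions of -1.78 ± 0.16 for Trip10 and -2.31 ± 0.25 for Klf13 passed in edgeR at adjusted p of 6.5e-07 and 1.08e-05. Socs2, a feedback inhibitor of cytokine and growth hormone signalling, and Ubb, a ubiquitin gene, were lost at -1.80 ± 0.22 and -1.04 ± 0.15.

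Reversed genes with the smallest p were, after Wee1, the thiamine transporter Slc19a2, Ndufa11, Ltbp1, Emp3, the zinc transporter Slc39a14, S100a6 and the ATP synthase gene Atp5e. Slc19a2 was at 12, 9.03 and 18.6 CPM at uninjured ZT4 and 42.7, 47 and 37.5 CPM at ZT16. After injury the levels were 47.7, 54.1, 55.4 and 46.8 CPM at ZT4 and 31.9, 32.5, 38.5 and 39.1 CPM at ZT16, with no overlap in either state and opposite orders. Its interaction of -2.22 ± 0.25 (edgeR adjusted p = 1.08e-05) was -2.35 without the 2 libraries and -2.05 with length offsets. S100a6, a calcium-binding protein, was at 128, 172 and 162 CPM and 53.2, 76.1 and 49.4 CPM in uninjured muscle and at 387, 387, 373 and 356 CPM and 420, 687, 539.5 and 421 CPM at day 3, also apart in both states. Atp5e had an interaction of 1.16 ± 0.16 (edgeR adjusted p = 0.000111), which was 0.28 with length offsets and then did not pass (adjusted p = 0.106). That of Emp3 was 1.13 ± 0.14 and, with length offsets, 0.55. Leaving out day 3 ZT16 library 1 raised the number of reversed genes from 281 to 381.

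New time differences were found for few genes. Cpne2, a calcium-dependent membrane-binding protein, was at 10.8, 11.5 and 7.85 CPM at ZT4 and 8.88, 7.71 and 6.53 CPM at ZT16 in uninjured muscle, with overlap. The day 3 libraries had 5.65, 4.45, 4.31 and 3.94 CPM at ZT4 and 7.39, 10.3, 9.44 and 8.75 CPM at ZT16, higher at ZT16 with no overlap, by 0.97 ± 0.20 (unadjusted p = 7.6e-05), and the interaction was 1.36 ± 0.30 (edgeR adjusted p = 0.00413). Zfas1, a noncoding host of small nucleolar RNAs, was at 31.1, 32.5, 39.2 and 36.5 CPM at day 3 ZT4 and 45, 80.9, 56 and 41.8 CPM at ZT16, and Sod1, the cytosolic superoxide dismutase, at 42.8, 39.9, 51.2 and 40.8 CPM and 54.8, 73.7, 61.3 and 55.8 CPM, both higher at ZT16 with no overlap. Their interactions were 1.22 ± 0.27 and 0.90 ± 0.21, neither of them called without uninjured ZT16 libraries 1 and 3, and with length offsets that of Sod1 was 0.21 and no longer passed (adjusted p = 0.471). Calr, a chaperone of the endoplasmic reticulum, had a day 3 difference of 0.35 ± 0.11 and an interaction of 0.69 ± 0.16 (edgeR adjusted p = 0.006). Of the 68 new genes, 44 were lower and 24 higher at ZT16 at day 3. In uninjured muscle, where none was called, 46 were higher and 22 lower at ZT16. Their median absolute log2 difference was 0.39 in uninjured muscle and 0.65 at day 3. A new difference is thus one not called in uninjured muscle, which does not show that it was absent there. All of these calls rest on the interaction, since no day 3 difference passed by itself. With length offsets 24 genes were new.

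Sec22a, a protein of vesicle transport, was at 42.2, 39.2 and 50.5 CPM at ZT4 and 30.2, 35.7 and 32.5 CPM at ZT16 in uninjured muscle. Day 3 levels were 35.6, 37.1, 40.7 and 35.4 CPM at ZT4 and 27.7, 28.6, 24.8 and 28.2 CPM at ZT16, lower at ZT16 with no overlap in either state. Its differences were -0.42 ± 0.13 and -0.44 ± 0.11, with an interaction of -0.02 ± 0.17 and a 95% interval of that interaction from -0.38 to 0.33. Klf7, a Krüppel-like factor, had differences of -0.78 ± 0.13 and -0.34 ± 0.12. Ttyh1, a membrane protein, had differences of 1.06 ± 0.19 and 1.08 ± 0.35, although at day 3 it stood at 3.07 CPM or less. Aven, an inhibitor of caspase activation, and the histone gene Hist1h2bc were higher at ZT16 in both states, by 1.54 ± 0.27 and 0.71 ± 0.24 for Aven and by 1.31 ± 0.21 and 0.53 ± 0.18 for Hist1h2bc. With length offsets Hist1h2bc passed the interaction at -1.41, and Klf7 at 0.68. A kept difference is one whose interaction did not pass, which does not show that the differences are equal. In all 32 the day 3 p is unadjusted, and over all 15084 genes 1003 reached that level.

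Of the markers of other cells, 2 of 8 smooth muscle and mural, 1 of 12 fibro-adipogenic, 1 of 10 endothelial and 1 of 12 myofiber genes differed with time in uninjured muscle. The share over all genes tested was 17.7%. Summed CPM of the 8 smooth muscle and mural markers ran from 797 to 1223 at uninjured ZT4 and from 394 to 675 at ZT16, and from 319 to 392 and 252 to 440 at day 3. Tagln and Acta2, contractile genes of smooth muscle, were lost at 1.82 ± 0.27 and 1.08 ± 0.28, and with length offsets Acta2 was at 0.94 and did not pass (adjusted p = 0.0597). Of the 8 smooth muscle and mural markers 4 were higher and 4 lower at ZT16 in uninjured muscle, with a median difference of 0.20. Their mean log2 CPM ran from 4.60 to 4.96 at uninjured ZT4 and from 4.43 to 5.14 at ZT16, with overlap. The 12 fibro-adipogenic markers summed to between 2991 and 3357 CPM at uninjured ZT4 and between 3712 and 3907 CPM at ZT16, and the 10 endothelial markers to between 119.3 and 134.1 CPM and between 155 and 232 CPM. The 12 myofiber markers summed to between 774 and 1351 CPM and between 1514 and 1997 CPM. Mean log2 CPM overlapped between the times for the endothelial list, at 2.26 to 2.82 and 2.27 to 3.49, and for the myofiber list, at 4.98 to 5.95 and 5.91 to 6.25. For the fibro-adipogenic list it did not overlap, at 3.985 to 4.013 and 4.123 to 4.265. Of these markers 10 were higher and 2 lower at ZT16 in uninjured muscle. At day 3 the fibro-adipogenic sums ran from 837 to 1646 CPM at ZT4 and from 806 to 974 CPM at ZT16, the endothelial ones from 21.3 to 38.8 and from 19.0 to 24.5 CPM, and the myofiber ones from 1833 to 2227 and from 1259 to 3099 CPM, each with overlap. The 18 macrophage and monocyte markers summed to between 24.7 and 154 CPM in uninjured muscle and between 410 and 1347 CPM at day 3, and Cd68 alone passed the interaction, at -2.88 ± 0.65, but not without libraries 1 and 3 (adjusted p = 0.265). Neutrophil markers stayed at or under 3.71 CPM in uninjured muscle and ran from 14.7 to 16.5 CPM at day 3 ZT4 and from 6.40 to 9.96 CPM at ZT16. The 10 muscle stem cell markers summed to between 4838 and 6219 CPM in uninjured muscle and between 3841 and 4691 CPM at day 3. Their mean log2 CPM ran from 8.79 to 9.11 and from 6.62 to 6.87. The part of these other cells in the lost and reversed differences was not tested.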

How the data were processed

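RNA of sorted muscle stem cells was measured in 22 libraries. The deposited tables hold expected counts per transcript, which the authors made with Trimmomatic 0.33, STAR 2.5.2 and RSEM 1.3.3 on mm10, per the submitters' processing notes. The authors' tables also hold TPM values from RSEM, which no test used. Expected counts were summed per gene and rounded. Genes passed a filter with a minimum count of 10 (15084 tested, 28346 not). edgeR 4.0.16 in R 4.3.3 was fitted to all 22 libraries with 6 group means and TMM normalization, and the quasi-likelihood test with Benjamini-Hochberg adjustment gave each difference and the interaction. Day 1 libraries entered only the estimate of spread. CPM values were computed from the same counts. The fit was tested on simulated data.

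Alternatives were DESeq2 1.42.0, limma 3.58.1 (voom), other normalizations and filters, a replicate block, each library left out, and offsets for length and GC. Genes named were the 10 highest and 10 lowest interactions, 8 of each class by smallest p and those next to the threshold. These had at least 10 CPM on average in a group. Whatever their level, all clock genes and up to 5 of every other list and its central members were also named. A further 6 genes were fixed (Pax7, Myf5, Myod1, Myog, Ccl2 and Nampt). Genes that spell out a count of 5 or fewer were named after their values were seen. The members and lists were chosen with earlier results of these data known. A few genes are not reported here.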

Additional observations from a re-analysis of the deposited data

Results flagged for a closer look

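In groups of 4 libraries, 18 of 496 sets of values had 1 library far from the rest by Dixon's ratio, the gap over the range, above the 95% critical value that chance exceeds in about 1 of 20. At day 3 ZT4 the ratio was 0.962 for Angptl4, 0.895 for Aven, 0.888 for Cox6b1, 0.879 for Fbxo32, 0.861 for Pakap and 0.911 for Per2. At day 3 ZT16 it was 0.900 for Aven, 0.893 for Eno1, 0.858 for Fgfr2, 0.886 for Hsph1, 0.869 for Mvk, 0.844 for Pax7 and 0.927 for Per3. In that group it was also 0.909 for Pmp22, 0.830 for Rnf220, 1.000 for S100a9, 0.864 for Tmem97 and 0.854 for Ucp2.

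A time difference of opposite sign in the 2 states is part of the rule for all 281 reversed genes. The 8 named ones with the smallest interaction p are listed here. The log2 interaction was -3.25 for Wee1, -2.22 for Slc19a2, 1.24 for Ndufa11 and -1.11 for Ltbp1. It was 1.13 for Emp3, -1.77 for Slc39a14, 1.83 for S100a6 and 1.16 for Atp5e. With length offsets that of Atp5e was 0.28 and did not pass (edgeR adjusted p = 0.106).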

How the results depend on the processing

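The interaction count of 1927 was 1058 in limma voom with group weights, 473 without uninjured ZT16 libraries 1 and 3, and 1193 with length offsets, and lay between 1309 (without uninjured ZT16 library 1) and 2369 (without library 2) when each library was left out. For the uninjured difference, 2663 calls became 1152 with group weights and 467 without both libraries, and lay between 1768 and 2898 on leaving out the same libraries 1 and 2 in turn. At day 3 DESeq2 called 4 genes and edgeR without a filter 127. Lost genes numbered 934 with voom sample weights, 534 with group weights and 249 without both libraries, and between 921 and 1726 when each library was left out. Reversed genes numbered 58 without both libraries and 114 with length offsets, and between 111 (without day 3 ZT16 library 2) and 381 (without library 1). New genes numbered 109 with DESeq2, 29 with group weights, 37 with the 14 libraries only, 120 without a filter, 5 without both libraries and 24 with length offsets, and between 33 (without uninjured ZT16 library 1) and 141 (without day 3 ZT16 library 1). Kept genes numbered 59 without a filter and 19 without both libraries, and between 18 (without day 3 ZT16 library 2) and 38 (without day 3 ZT4 library 3). Without both libraries the interactions of Irf1 and Myh8 turned to 0.33 (edgeR adjusted p = 0.795) and 0.34 (adjusted p = 1). The cause was not tested. With the replicate block 1683 interactions passed, 1544 of them among the 1927, but replicate numbers did not pair the libraries: same-numbered libraries correlated between -0.116 and 0.129 in their deviations. The hour of collection and the source of replicates limit what the time labels mean, and 3 or 4 libraries a group limit precision.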
